A study of Mus musculus with 2 samples.

Results

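Neuron.7 was a small cluster of 79 nuclei, of 18281 in all, from the brainstem of mice with and without the Dravet syndrome allele of Scn1a. Its members were all nuclei to which the authors' cell table gave the identity neuron.7, 46 of 9259 in the WT library and 33 of 9022 in the HET library. Single-nucleus RNA-seq had been run on frozen, dissected brainstem with 10x Genomics 3′ chemistry, which counts unique molecular identifiers (UMIs) per gene and nucleus. HETs carried Scn1a A1783V/WT, a knock-in missense allele made in a cross of a floxed male with a Sox2-Cre female, a driver that acts throughout the embryo, so that the allele was not limited to these neurons. The WT was a littermate with intact Scn1a. Both were untreated females on a C57BL/6J background at postnatal day 41. Each genotype was 1 library, so genotype, animal and library cannot be told apart, and no result below carries a p-value.

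Serotonergic neurons lie in the raphe nuclei of the brainstem and send axons through much of the brain and spinal cord. They hydroxylate tryptophan with tryptophan hydroxylase 2 (Tph2), decarboxylate the product with Ddc, load serotonin into vesicles with Slc18a2 (VMAT2) and take it back up with Slc6a4 (SERT). Their identity is set up by a group of transcription factors that includes Gata2, Gata3, Lmx1b and the ETS factor Fev (Pet1). Raphe neurons are known for slow regular firing held back by 5-HT1 autoreceptors, and medullary ones for their part in breathing and the response to carbon dioxide.

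The label fitted its markers. Tph2, Slc6a4 and Fev had their highest level of all neuron clusters in neuron.7 in both libraries. The regions before the starts of these 3 genes are shown because their transcripts define the cluster, and because GATA and ETS factors belong to the same program. Each is the 250 bases upstream of the RefSeq start in GRCm38, read 5′ to 3′ on the gene's strand. Capitals mark a GATA match, searched on both strands as AGATAA or as the same letters with G in the last place, T in the first, or both. The Tph2 window is chr10:115185023-115185272 on the minus strand, the Slc6a4 window chr11:76998347-76998596 on the plus strand and the Fev window chr1:74885409-74885658 on the minus strand.
Tph2: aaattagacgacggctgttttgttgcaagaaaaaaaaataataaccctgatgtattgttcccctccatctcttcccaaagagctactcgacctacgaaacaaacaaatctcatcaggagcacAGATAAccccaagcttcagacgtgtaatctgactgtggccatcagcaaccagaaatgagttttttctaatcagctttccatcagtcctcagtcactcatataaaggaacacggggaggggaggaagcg
Slc6a4: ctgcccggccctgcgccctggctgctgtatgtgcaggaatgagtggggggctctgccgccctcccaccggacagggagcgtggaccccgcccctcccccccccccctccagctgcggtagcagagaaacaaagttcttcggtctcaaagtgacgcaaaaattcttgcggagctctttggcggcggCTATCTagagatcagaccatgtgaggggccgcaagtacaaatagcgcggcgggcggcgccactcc
Fev: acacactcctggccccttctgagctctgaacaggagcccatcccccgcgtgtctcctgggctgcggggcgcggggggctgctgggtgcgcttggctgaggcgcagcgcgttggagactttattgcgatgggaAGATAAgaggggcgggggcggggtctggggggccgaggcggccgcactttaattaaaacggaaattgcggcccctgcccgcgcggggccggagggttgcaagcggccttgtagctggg
Each window held 1 GATA match. It lay 123 to 128 bases before the start of Tph2, 60 to 65 bases before that of Slc6a4, where the letters stand on the reverse strand, and 113 to 118 bases before that of Fev. None of them held GGAAGT, the ETS letters searched, on either strand. Over all 32851 promoter windows of the same length, 26.5% held a GATA match and 19.7% held GGAAGT, so a GATA match was common and is given as a description only. In the annotation the genes themselves span chr10:115078641-115185022 (Tph2, ENSMUSG00000006764), chr11:76998603-77032340 (Slc6a4, ENSMUSG00000020838) and chr1:74881509-74885419 (Fev, ENSMUSG00000055197).

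Levels are given as CPM, the UMIs of a gene per 1000000 UMIs, from UMIs summed over the nuclei of a cluster in 1 library, with an exact 95% Poisson interval. Neuron.7 held 507616 UMIs in the WT library and 388113 in the HET library, with a median of 11336 and 11780 per nucleus. Where a count was 0, a floor of 3 counts is given as its limit, which is 5.91 CPM in WT and 7.73 CPM in HET, under the upper end of the exact interval for 0 (7.27 and 9.50 CPM). The other neuron clusters together, 6072 WT and 5360 HET nuclei, served as the comparison, within each library. Intervals here and below cover counting error only and not the spread between animals. The clusters were made from the same transcripts, so that a ratio of neuron.7 to the rest describes the cluster and tests nothing. The deposited numbers of nuclei per neuron cluster also differed between libraries, neuron.5 holding 42 WT and 332 HET nuclei and neuron.6 holding 120 and 5. Between the libraries, 23 cell barcodes were shared, 1 of them by a neuron.7 nucleus.

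Tph2 was counted 430 times in WT and 733 times in HET neuron.7 nuclei, or 847 CPM (95% interval 769 to 931) and 1889 CPM (1754 to 2030). In the other neuron clusters it stood at 0.80 and 1.08 CPM, a ratio of 1059 and 1752. The other neurons were thus no higher than oligodendrocytes, which do not make serotonin and stood at 1.20 and 1.52 CPM. Slc6a4, the serotonin transporter, reached 753 CPM (679 to 832) in WT and 652 CPM (574 to 737) in HET, against 0.70 and 0.45 CPM in the other clusters. Fev was sparse, with 15 UMIs in WT (29.5 CPM, 16.5 to 48.7) and 5 in HET (12.9 CPM, 4.18 to 30.1), yet its ratio to the other neurons was 158 and 97.3. Its low count meant that Fev marked the cluster and not the single nucleus.

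**Figure D1:**
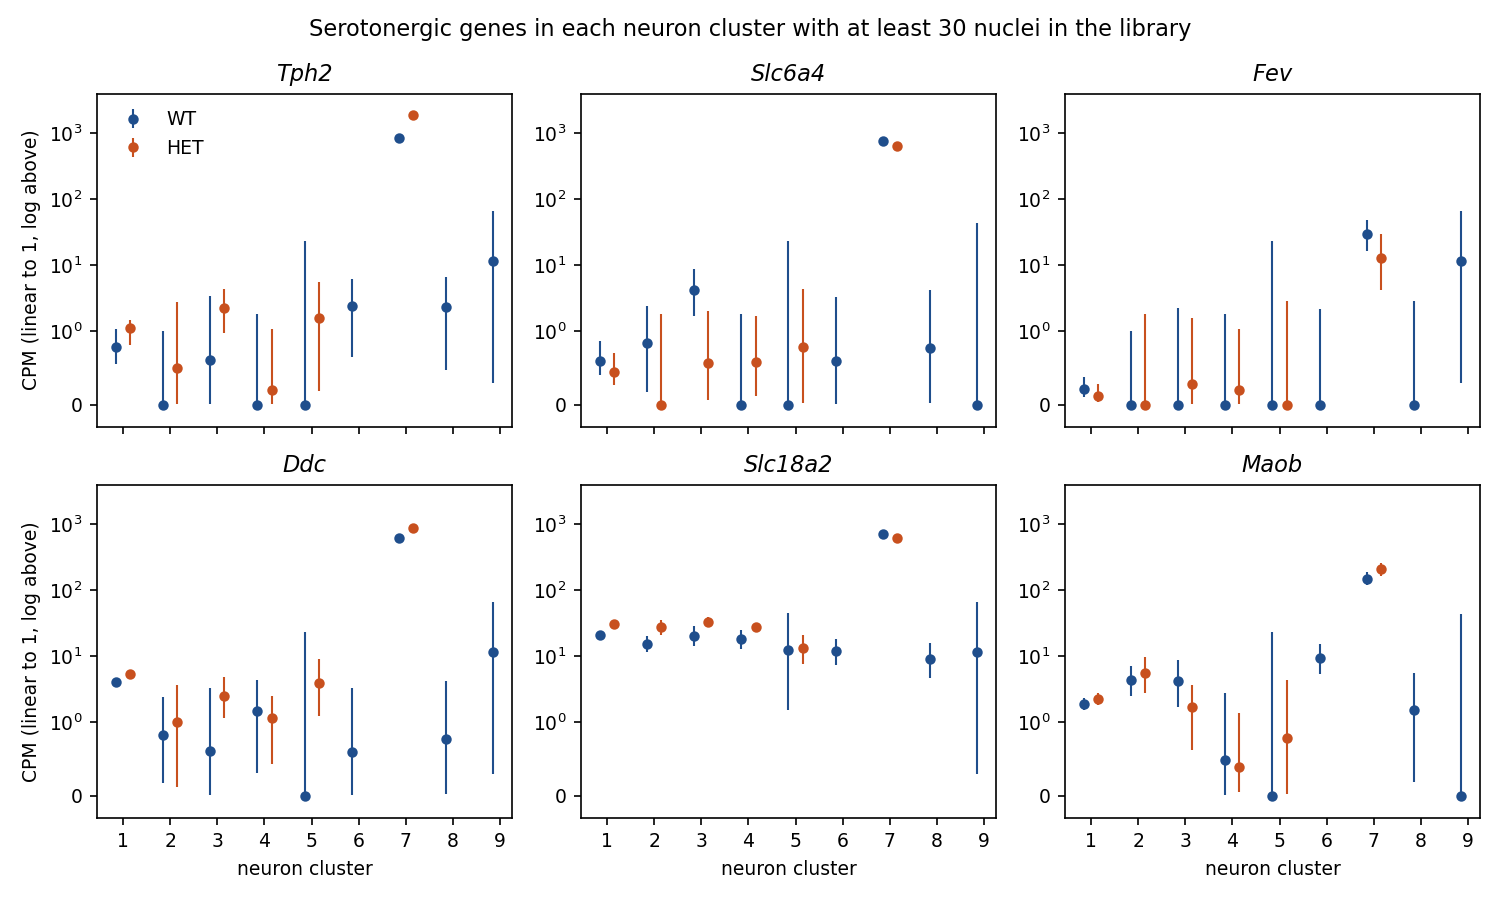
CPM of 6 serotonergic genes (vertical axis, linear to 1 and logarithmic above) in each numbered neuron cluster with at least 30 nuclei in the library, for WT and HET, with exact 95% Poisson intervals as bars. Neuron.7 stands above every other cluster in all 6 panels and both libraries, Tph2 reaching 847 CPM in WT and 1889 CPM in HET.

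Nucleus by nucleus the identity was nearly uniform. A UMI of Tph2 was found in 78 of 79 nuclei (98.7%, exact 95% interval 93.1% to 99.97%), against 0.79% of other neurons and 0.46% of oligodendrocytes, which should lack it. Slc6a4 was found in 77 of 79 nuclei (97.5%), against 0.53% of other neurons and 0.14% of oligodendrocytes. All 79 nuclei held a UMI of one or the other, 76 held both, and 75 held Ddc and Slc18a2 as well. Among the 11432 other neurons, 1 held both Tph2 and Slc6a4. Fev was found in 19 nuclei (24.1%, 15.1% to 35.0%), each of which also held Tph2 and Slc6a4.

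These shares depend on depth, since the median oligodendrocyte held 2738 UMIs in WT and 2854 in HET. With every nucleus thinned to 1000 UMIs, the share in neuron.7 was 64.6% for Tph2 and 49.4% for Slc6a4, against 0.079% of other neurons for each gene. No thinned nucleus of neuron.7 held Fev, which allows a share of up to 3.80%. Tph2 and Slc6a4 therefore separated neuron.7 from other neurons at matched depth, while Fev was not detectable at that depth.

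**Figure D2:**
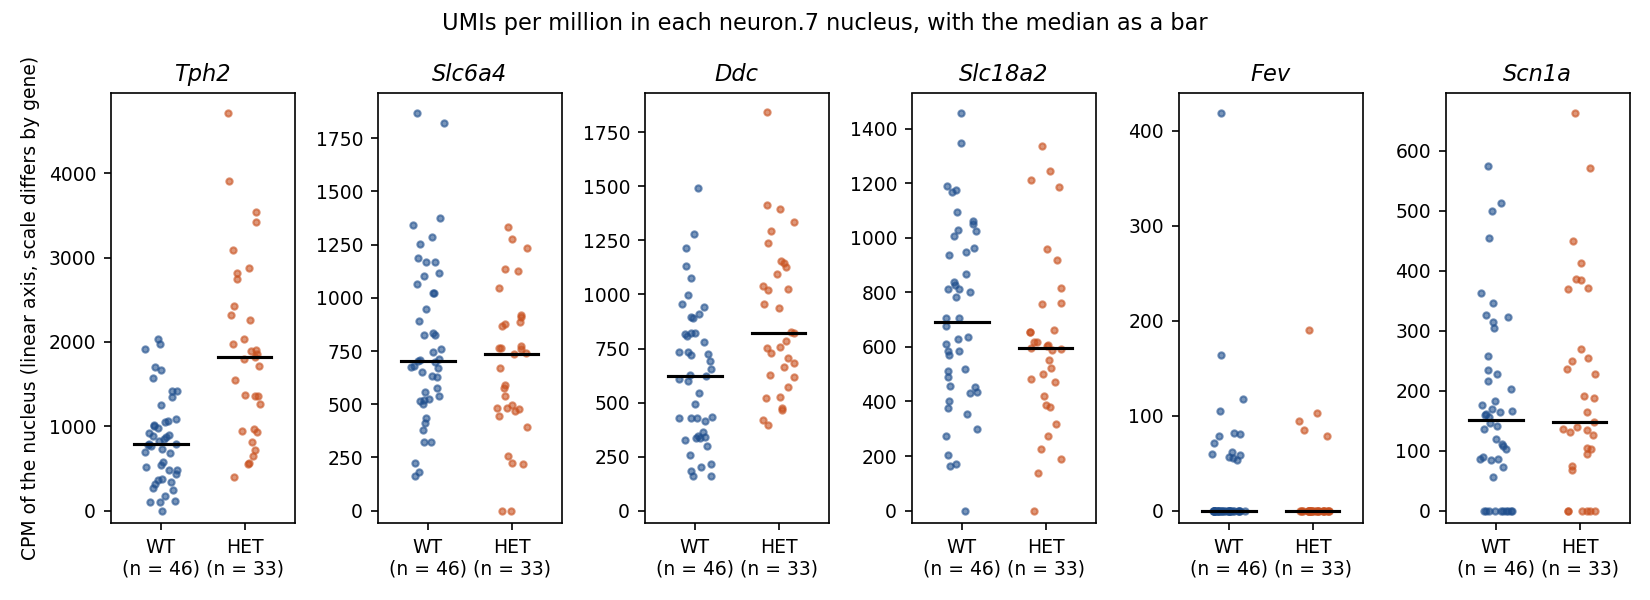
CPM in each of the 46 WT and 33 HET nuclei of neuron.7 (vertical axis, linear, scale set by gene), with the median as a bar, for Tph2, Slc6a4, Ddc, Slc18a2, Fev and Scn1a. The medians of Tph2 were 795 CPM in WT and 1824 CPM in HET with overlapping ranges, and the medians of Fev were 0 in both libraries.

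The authors' other labels bore on the same nuclei. Their automatic reference label called all 79 nuclei neurons, and 4 of them activated neurons. Their coarser clustering, at resolution 0.8, held exactly these 79 nuclei in a group of its own. At resolution 1.5 the 79 were joined by 33 nuclei of neuron.1, 16 from WT and 17 from HET, making a group of 112.

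Those 33 neighbours, with a median of 11563 UMIs, held monoamine genes at other levels than neuron.7 did. Slc18a2 stood at 381 CPM in them and at 668 CPM in neuron.7, both libraries together, against 23.5 CPM in the remaining neurons. Ddc stood at 185 CPM in the neighbours and 737 CPM in neuron.7. Tph2 and Slc6a4, by contrast, were at 33.5 and 5.15 CPM in the neighbours (13 and 2 UMIs) and at 1298 and 709 CPM in neuron.7, and Fev was at 0 in the neighbours. The remaining neurons held Tph2 at 0.82 CPM, below the neighbours, in 5 of which it was counted. The neighbours also held Gch1 at 56.7 CPM and Tph1 at 15.5 CPM (6 UMIs), against 0.84 and 0.045 CPM in the remaining neurons and 171 and 1.12 CPM in neuron.7. The genes of noradrenaline synthesis and uptake ran the other way. Th, tyrosine hydroxylase, was at 183 CPM in the neighbours, Dbh, which makes noradrenaline, at 121 CPM, and Slc6a2, its transporter, at 152 CPM. A UMI of them was found in 15, 13 and 12 of the 33 neighbours, so that these levels came from a part of the group. In neuron.7 none of these 3 genes had a single UMI, with a floor of 3 counts at 3.35 CPM. The oxidases also differed, Maoa being higher in the neighbours (247 against 67.0 CPM) and Maob in neuron.7 (178 against 18.0 CPM).

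**Figure D3:**
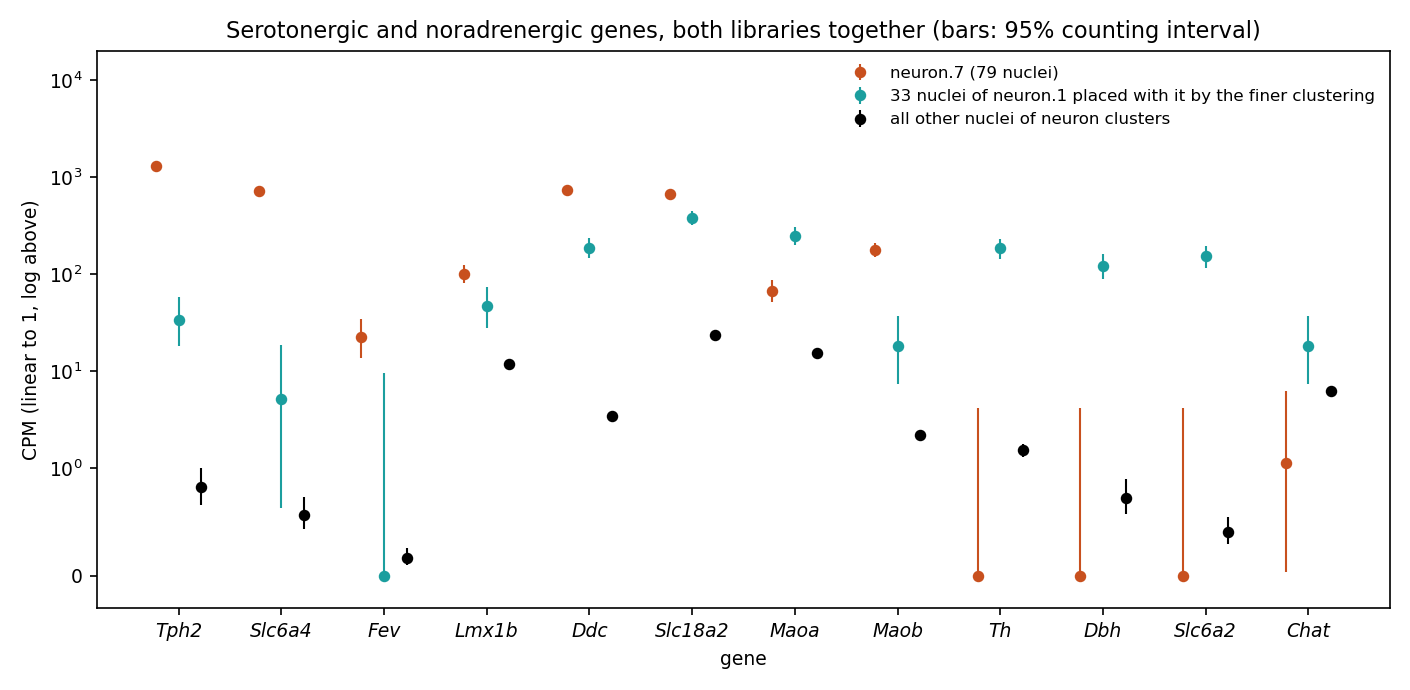
CPM (vertical axis, linear to 1 and logarithmic above) of 12 genes, both libraries together, in neuron.7, in the 33 nuclei of neuron.1 that the finer clustering placed with it, and in the remaining neurons, with exact 95% Poisson intervals. Tph2 and Slc6a4 are highest in neuron.7 at 1298 and 709 CPM, while Th, Dbh and Slc6a2 are at 183, 121 and 152 CPM in the neighbours and at 0 in neuron.7.

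Markers of other cell types were near their level in other neurons. Its summed level of 7 oligodendrocyte markers was 550 CPM in WT and 551 CPM in HET, against 582 and 692 CPM in the other neurons. The 6 astrocyte markers summed to 80.8 and 67.0 CPM against 117 and 104 CPM, the 6 microglial markers to 177 and 175 CPM against 191 and 208 CPM, and the 5 endothelial markers to 76.8 and 43.8 CPM against 63.2 and 60.7 CPM. The 3 markers of oligodendrocyte precursors summed to 9.85 and 7.73 CPM against 19.97 and 18.7 CPM. Among defining markers Cspg4 had no UMI in neuron.7, Csf1r 1 and Gfap 2. Of these 27 genes 11 had at least 20 UMIs, and none of the 11 was 2-fold higher in neuron.7 in both libraries.

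The genes of the serotonin pathway had the largest median ratio of the lists examined. Of 15 listed genes of synthesis, storage, uptake and breakdown, all were counted, 11 had at least 20 UMIs, and 9 of those were at least 2-fold higher in neuron.7 than in the other neurons in both libraries, with none lower. Over all 6940 genes with at least 20 UMIs, 339 (4.88%) were 2-fold higher and 189 (2.72%) 2-fold lower in both. The median log2 ratio of the 11 genes was 6.50 in WT and 6.63 in HET, against 0.12 and 0.08 over all genes. Most of the 9 would not have reached 20 UMIs at the level of other neurons. The minimum thus favoured high genes in this count and median.

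Ddc, the decarboxylase, stood at 626 and 881 CPM in the WT and HET libraries, a ratio of 176 and 189 to the other neurons. Reads of the antisense gene 1700042O10Rik, which lies within Ddc and was counted 632 and 448 times in neuron.7, cannot be told apart from those of Ddc if strand was not used in counting, which the sources used here do not state. The same holds for Slc6a4, Gch1, Slc22a3 and Slc18a2, which overlap annotated genes on the opposite strand. Gch1, the first enzyme in making the tetrahydrobiopterin cofactor that Tph2 needs, stood at 201 and 131 CPM, 179 and 142 times its level in other neurons. Gchfr, which binds and regulates the Gch1 enzyme, had 18 and 10 UMIs and ratios of 90.6 and 68.1. The 2 later cofactor genes with enough counts did not pass, Qdpr at ratios of 1.93 and 0.93 and Pts at 1.08 and 1.16. The cofactor pathway was thus high at its entry step and near the level of other neurons at Qdpr and Pts.

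Slc18a2 stood at 705 CPM (634 to 782) in WT and 618 CPM (543 to 702) in HET, 35.3 and 20.6 times its level in other neurons. Slc22a3, a low-affinity transporter that takes up monoamines, stood at 256 and 196 CPM, with ratios of 198 and 106. Of the breakdown enzymes Maob, known for its presence in serotonergic cells, stood at 152 and 211 CPM, with ratios of 66.5 and 98.9. Maoa was raised less, at 76.8 and 54.1 CPM and ratios of 4.82 and 3.37. The 4 genes below 20 UMIs were Tph1, with 1 UMI in all, Spr, Pcbd1 and Slc29a4.

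Among 10 listed transcription factors in the file, 4 had at least 20 UMIs, and all 4 were 2-fold higher in both libraries. At the level of other neurons these 4 would not have reached 20 UMIs, so that this count followed from the minimum. Lmx1b, which serotonergic neurons need to form and to be maintained, stood at 92.6 and 111 CPM, 8.22 and 8.80 times the other neurons, although neuron.2 also held it at 54.5 and 67.0 CPM. Gata2 stood at 43.3 and 28.3 CPM, with ratios of 21.6 and 17.4, and Gata3 at 78.8 and 51.5 CPM, with ratios of 10.4 and 8.46. Fev was the fourth. Factors of the embryonic program were at or near 0: Nkx2-2 had 4 UMIs and Insm1 1, and Foxa2, En1 and En2 had none.

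Hox genes, whose expression in the hindbrain marks the more caudal segments, were sparse. Of 25 Hox genes in the file, 12 had a UMI in neuron.7 and none reached 20. Their summed level was 67.0 CPM in WT and 33.5 CPM in HET, against 198 and 108 CPM in the other neurons. A Hox UMI was found in 23 of 46 WT and 9 of 33 HET nuclei, or 40.5% of all 79, against 58.9% of other neurons and 17.0% of oligodendrocytes. En1, which marks the rostral raphe, was in none of the 79 nuclei and in 1.24% of other neurons. A count of 0 of 79 allows up to 3.80% of nuclei with a UMI by the floor of 3 counts, under the exact limit (4.56%). Such a count limits no share of expressing nuclei. The rostral or caudal origin of single nuclei could not be read at this depth.

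Co-transmitter genes were mostly low. Of 19 listed genes, 12 were counted in neuron.7 and 2 had at least 20 UMIs, so that the low ones would be missed by that minimum. With the minimum set instead on UMIs counted or expected from the level in other neurons, a rule chosen after the data were seen, 7671 genes were compared and 470 (6.13%) were 2-fold lower in both libraries. Under that rule 7 co-transmitter genes could be compared, and 4 were lower.

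The vesicular glutamate transporter 3 (VGLUT3, Slc17a8), known to be carried by some raphe neurons, was the 1 co-transmitter gene that was higher. It had 15 UMIs in 9 WT nuclei and 7 UMIs in 5 HET nuclei, or 29.5 CPM (16.5 to 48.7) and 18.0 CPM (7.25 to 37.2), which is 9.70 and 5.36 times the other neurons. A UMI was found in 14 of 79 nuclei (17.7%), against 2.13% of other neurons and 0.27% of oligodendrocytes. Thinned to 1000 UMIs the shares were 3.80%, 0.33% and 0.024%. Its level in neuron.7 was the highest of all neuron clusters compared, with neuron.2 next at 13.4 and 10.1 CPM. It was not particular to neuron.7, as the neighbours within neuron.1 described above held it too. With both libraries together they stood at 46.4 CPM (27.5 to 73.3, 18 UMIs), and neuron.7 at 24.6 CPM (15.4 to 37.2). A UMI was found in 18.2% of these neighbours.

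The VGLUT2 gene Slc17a6 ran the other way, at 19.7 and 18.0 CPM, 3.76 and 4.65 times lower than in other neurons and also below its level in oligodendrocytes (41.4 and 40.6 CPM). Slc17a7, for VGLUT1, had no UMI. The GABA synthesis gene Gad2 was 3.87 and 3.78 times lower than in other neurons, the vesicular GABA and glycine transporter Slc32a1 2.45 and 3.30 times lower, and the glycine transporter Slc6a5 8.27 and 6.41 times lower. Gad2 stood at 17.7 and 18.0 CPM in neuron.7 and at 19.7 and 20.8 CPM in the shallower nuclei of oligodendrocytes. A UMI of Gad1 or Gad2 was found in 10 WT and 8 HET nuclei, and 1 of each library also held Slc17a8.

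Acetylcholine and catecholamine genes were at or near 0. Slc18a3, Th, Dbh, Slc6a2, Slc6a3 and Pnmt had no UMI in either library and Chat had 1. Nos1, for neuronal nitric oxide synthase, had 14 and 1 UMIs, and 1 WT nucleus held 71.4% of the former.

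Of 23 listed neuropeptide precursors, 18 were counted, and the 2 with at least 20 UMIs were both 2-fold higher in neuron.7. At the level of other neurons these 2 would not have reached 20 UMIs, so that this count followed from the minimum. With the minimum on UMIs counted or expected, 4 could be compared, with 2 higher and 1 lower. Tac1, which encodes substance P, had 79 UMIs in 25 WT nuclei and 19 UMIs in 11 HET nuclei, or 156 CPM (123 to 194) and 49.0 CPM (29.5 to 76.4). These levels were 6.86 and 3.31 times those of other neurons, and oligodendrocytes held 25.0 and 16.1 CPM. Trh, thyrotropin-releasing hormone, had 22 UMIs in 5 WT nuclei and 6 UMIs in 4 HET nuclei (43.3 and 15.5 CPM), 45.5 and 48.1 times the other neurons. Both peptides are known from medullary raphe neurons. The enkephalin precursor Penk, compared by the minimum on expected UMIs, ran the other way, at 11.8 and 10.3 CPM, 3.38 and 2.88 times lower than in other neurons.

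The peptides were spread unevenly over the nuclei. A Tac1 UMI was found in 36 of 79 nuclei (45.6%), against 11.6% of other neurons and 6.29% of oligodendrocytes, and in 7.59%, 2.24% and 2.60% after thinning. Trh was found in 9 nuclei (11.4%), against 0.49% and 0.31%, and in 1.27%, 0.061% and 0.096% after thinning. Of the 9 nuclei with Trh, 7 also held Tac1, and Tac1 or Trh was found in 38. Of the 14 nuclei with Slc17a8, 8 held Tac1 or Trh, 7 in WT and 1 in HET. A Hox UMI was found in 20 of the 38 nuclei with a peptide (52.6%) and in 12 of the 41 without (29.3%). In WT these counts were 13 of 26 and 10 of 20, and in HET 7 of 12 and 2 of 21, and the difference was not tested.

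Receptors and channels were described by 8 lists of 217 genes, of which 101 had at least 20 UMIs. Of these, 16 (15.8%) were 2-fold higher in neuron.7 in both libraries, 12 (11.9%) were 2-fold lower and 73 were neither, against 4.88% and 2.72% of all genes. With the minimum on UMIs counted or expected, 16 of 120 were higher, against 4.42% of all genes. By that rule 27 of 120 (22.5%) were lower, against 6.13% of all genes. Some of the 16, Htr1d and Hrh1 among them, would not have reached 20 UMIs at the level of other neurons. The minimum thus favoured high genes here and in the single lists below. In 35 of the 217 genes no UMI was found.

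Serotonin receptors lay on both sides of the other neurons. Of 14 listed genes, 11 were counted and 5 had at least 20 UMIs, with 2 higher and 1 lower. Htr1b, an inhibitory autoreceptor of serotonergic terminals, stood at 70.9 CPM (49.7 to 98.2) in WT and 113 CPM (82.4 to 152) in HET, 9.45 and 14.1 times the other neurons. Htr1d, its close relative, stood at 23.6 CPM (12.2 to 41.3) and 59.3 CPM (37.6 to 88.9), with ratios of 7.63 and 26.6. Both were highest in neuron.7 among the neuron clusters. Htr1a, the autoreceptor of the cell body, had 6 and 5 UMIs (11.8 and 12.9 CPM), under the minimum, with other neurons at 2.18 and 1.51 CPM.

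The excitatory Htr2c ran the other way, at 106 and 162 CPM, 6.64 and 4.42 times lower than in other neurons. Receptors coupled to cAMP production were also low by the minimum on expected UMIs, Htr4 with 1 and 4 UMIs and Htr7 with 5 and 5, Htr7 being 5.33 and 4.11 times lower than in other neurons. Htr1f and Htr2b had at least 20 UMIs and were neither 2-fold higher nor 2-fold lower in both libraries.

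Of 31 other amine and acetylcholine receptors, 18 were counted and 4 had at least 20 UMIs, with 2 higher and none lower. Adra1b, an excitatory noradrenaline receptor, stood at 94.6 and 87.6 CPM, 5.22 and 5.14 times the other neurons. Hrh1, the excitatory H1 histamine receptor, stood at 59.1 and 77.3 CPM, with ratios of 17.0 and 12.4. The muscarinic receptors Chrm2 and Chrm3 differed, Chrm2 at 406 and 319 CPM being 1.75 and 1.21 times its level in other neurons and Chrm3 at 17.7 and 25.8 CPM being 17.4 and 14.7 times lower. Chrm3, with 19 UMIs in all, passed only the minimum on expected UMIs, as did Adra1a, which was 2.51 and 3.67 times lower. Adra1a and Adra1b thus lay on opposite sides of the level in other neurons.

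Of 38 peptide and hormone receptors, 30 were counted and 9 had at least 20 UMIs, with 3 higher and none lower. Hcrtr1, a receptor for orexins, the wake-promoting hypothalamic peptides, stood at 45.3 and 33.5 CPM, 11.6 and 12.6 times the other neurons. Esr2, oestrogen receptor beta, had 8 and 13 UMIs and ratios of 8.42 and 26.0. Nr3c1, the glucocorticoid receptor, stood at 252 and 296 CPM, with ratios of 7.20 and 6.97. Oligodendrocytes held 165 and 168 CPM of Nr3c1, so that its high level was shared with glia although not with other neurons. The mineralocorticoid receptor Nr3c2 and the mu opioid receptor Oprm1 passed neither way, at ratios of 1.25 and 1.41 and of 0.62 and 0.59.

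GABA and glycine receptor subunits lay on both sides of the other neurons. Of 22 genes, 21 were counted and 16 had at least 20 UMIs, with 3 higher and 2 lower. Gabrb1 stood at 1186 CPM (1093 to 1285) in WT and 1360 CPM (1247 to 1482) in HET, 2.60 and 2.90 times the other neurons, whereas Gabrb2 stood at 43.3 and 46.4 CPM, 3.37 and 4.87 times lower. Of the beta subunits, Gabrb1 was thus the raised one and Gabrb2 the lowered one. Gabrq, for the theta subunit, stood at 45.3 and 41.2 CPM, with ratios of 15.4 and 11.1. Gabre, for the epsilon subunit, had 17 UMIs in all, under the minimum, with ratios of 25.0 and 19.9. Gabra5, for an alpha subunit, was 4.53 and 2.29 times lower. The glycine receptor subunit gene Glra2 stood at 164 and 196 CPM, with ratios of 4.03 and 4.101, level with neuron.5 in WT (172 CPM).

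Of 26 glutamate receptor genes, 23 were counted and 22 had at least 20 UMIs, with none higher and 3 lower. Gria3, a subunit of AMPA receptors, had 11 UMIs in WT (21.7 CPM) and 28 in HET (72.1 CPM), 28.6 and 7.30 times lower than in other neurons. Gria4, another AMPA receptor subunit, stood at 2762 and 2788 CPM, the highest of the neuron clusters, with ratios of 2.18 and 1.99, the second just under 2-fold. Grm5, a group I metabotropic receptor, stood at 132 and 247 CPM, 8.20 and 4.65 times lower than in other neurons. Grik3, a kainate receptor subunit, was 3.26 and 2.13 times lower. The AMPA subunits were thus unevenly placed, with Gria3 low and Gria4 high.

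Scn1a, the gene that carries the allele, encodes the sodium channel NaV1.1. It had 84 UMIs in 36 of 46 WT nuclei and 79 UMIs in 27 of 33 HET nuclei, or 165 CPM (132 to 205) and 204 CPM (161 to 254). The other neurons stood at 433 and 495 CPM, so that neuron.7 was 2.61 and 2.43 times lower. It ranked 8 of 9 neuron clusters in WT, above neuron.9 at 130 CPM, and 6 of 6 in HET, where the other clusters ranged from 392 to 570 CPM. A Scn1a UMI was found in 79.7% of neuron.7 nuclei, 89.0% of other neurons and 20.3% of oligodendrocytes, and after thinning in 15.2%, 34.9% and 7.50%. The A1783V change is a missense allele, which 3′ counts do not separate from the WT allele, so the level of Scn1a was no check of the labels. The log2 ratio of HET over WT for Scn1a was 0.30 in neuron.7 (95% interval -0.16 to 0.76) and 0.19 in the other neurons.

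Of 25 sodium, pacemaker and calcium channel genes, 23 were counted and 16 had at least 20 UMIs, with 3 higher and 3 lower. Scn3b, an auxiliary subunit of sodium channels, was 2.11 and 2.54 times higher. Pore-forming subunits other than Scn1a lay closer to the level in other neurons, Scn2a at ratios of 1.25 and 1.19, Scn9a at 1.11 and 0.80, and Scn8a 2.05 and 1.94 times lower.

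Of the pacemaker channel genes, Hcn3 had 15 UMIs in each library and was 2.60 and 3.43 times higher than in other neurons, the highest of the clusters. Cacna1a, the pore of P/Q-type calcium channels, stood at 1686 CPM (1575 to 1803) and 1389 CPM (1274 to 1511), with ratios of 2.18 and 2.14. Nalcn, a sodium leak channel, was at 1.01 and 1.15 times its level in other neurons. By the minimum on expected UMIs the T-type calcium channel genes Cacna1g and Cacna1i were 2-fold lower, Cacna1g with 5 UMIs in WT and 0 in HET.

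Of 44 potassium channel genes, 40 were counted and 23 had at least 20 UMIs, with 2 higher and 2 lower. Kcnn3, for the calcium-activated SK3 channel, stood at 160 CPM (127 to 198) and 173 CPM (134 to 219), 6.55 and 6.68 times the other neurons and the highest of the clusters. Kcnk9, for the acid-sensitive leak channel TASK-3, stood at 74.9 and 64.4 CPM, with ratios of 2.35 and 2.37. Kcnh5 was 3.104 and 2.47 times lower and Kcnt1, a sodium-activated channel, 2.09 and 2.73 times lower. Kcna1, with 14 UMIs in all, was 15.4 and 6.70 times lower, while oligodendrocytes held it at 230 and 324 CPM. By the minimum on expected UMIs 6 genes of the list were lower, Kcna2, Kcnh1 and Kcnh8 being the others.

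Of 17 TRP and acid-sensing channels and receptors, 16 were counted and 6 had at least 20 UMIs, with 1 higher and 1 lower. Trpc7, a receptor-operated cation channel, stood at 57.1 and 72.1 CPM, with ratios of 2.58 and 2.16. Trpm3 stood at 70.9 and 82.5 CPM, 7.72 and 6.92 times lower than in other neurons and below the 114 and 112 CPM of oligodendrocytes. By the minimum on expected UMIs Trpc5, Trpc6 and Trpm2 were lower as well.

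Of all genes with at least 20 UMIs in each library, the 20 with the largest ratio in their lower library were led by Slc6a4, Tph2, 1700042O10Rik, Ddc and Gch1. Slc22a3, Maob and Slc18a2 of the serotonin list were also among them. Outside that list stood Gucy2f, a guanylate cyclase best known from the retina, with 44 and 29 UMIs and log2 ratios of 7.86 and 7.09. Cpne7, a calcium-dependent phospholipid-binding protein, had log2 ratios of 5.11 and 5.47 from 170 and 125 UMIs. Pappa2, a protease that cleaves binding proteins of insulin-like growth factors, had log2 ratios of 5.19 and 5.10 from 195 and 213 UMIs.

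Receptors and signalling genes were also found there. Calcr, the calcitonin receptor, had log2 ratios of 5.21 and 4.85, with its 51 and 38 UMIs in 18 WT and 9 HET nuclei. Ptger3, the prostaglandin E2 receptor EP3, had log2 ratios of 5.69 and 4.35 from 59 and 20 UMIs. Gna14, a G protein alpha subunit of the Gq family, had log2 ratios of 4.11 and 4.36. Vwa5b1 and Tns1, an adaptor at focal adhesions, had log2 ratios of 4.66 and 4.95 and of 4.44 and 4.35. For Tns1 and Gna14 a single other cluster came closer than these ratios show. In WT, neuron.8 held Tns1 at 155 CPM against 193 CPM in neuron.7, and Gna14 at 46.9 against 74.9 CPM. In HET the next clusters were neuron.3 for Tns1 (27.6 against 188 CPM) and neuron.2 for Gna14 (38.3 against 67.0 CPM). The remaining 4 were the noncoding genes Gm44947, Gm26907, 6030407O03Rik and Gm26713. Of these, 6030407O03Rik stood at 72.9 CPM in WT and 116 CPM in HET. Oligodendrocytes held it at 104 and 54.3 CPM, and neuron.8 in WT at 58.4 CPM.

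Between the libraries of HETs and WTs, the neuron.7 nuclei made up 0.366% (exact 95% interval 0.252% to 0.513%) and 0.497% (0.364% to 0.662%) of all nuclei, intervals that overlap. Of the 6940 genes, 243 (3.50%) were at least 2-fold higher and 517 (7.45%) at least 2-fold lower in HET. The median log2 ratio of HET over WT was -0.09, and setting it to 0 gave 315 higher and 409 lower, so that the split moved from 32.0% to 43.5% higher. The share of ribosomal protein UMIs per nucleus differed, with a median of 0.517% in WT and 0.296% in HET. Its part in the differences was not tested.

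Tph2 had the largest ratio of HET over WT among the serotonin pathway genes. Per nucleus it ranged from 0 to 2030 CPM around a median of 795 CPM in WT, and from 393 to 4711 CPM around a median of 1824 CPM in HET. The ranges overlapped, with the HET median near the top of the WT range. The log2 ratio of HET over WT was 1.16 (95% interval 0.98 to 1.33), against 0.43 in the other neurons, where Tph2 rests on 47 and 57 UMIs. No single nucleus held more than 7.91% of the WT or 6.68% of the HET UMIs.

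Other genes of the pathway did not share a shift of that size. The log2 ratio of HET over WT was 0.49 (0.27 to 0.72) for Ddc, 0.48 (0.01 to 0.95) for Maob and -0.61 (-1.13 to -0.11) for Gch1. In the other neurons these genes stood at 0.39, -0.09 and -0.28. Slc6a4 stood at -0.21 (-0.44 to 0.03) and Slc18a2 at -0.19 (-0.43 to 0.05), with intervals that include 0. Per nucleus Slc6a4 ranged from 164 to 1866 CPM in WT (median 704) and from 0 to 1335 CPM in HET (median 735). Of the 11 pathway genes compared, 3 were higher and 8 lower in HET, with a median log2 ratio of -0.21, against -0.09 over all genes.

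Both peptides were lower in HET. The log2 ratio was -1.67 for Tac1 (-2.47 to -0.93) and -1.49 for Trh (-3.08 to -0.14), and in the other neurons -0.62 and -1.57. A Tac1 UMI was found in 25 of 46 WT nuclei (54.3%, exact interval 39.0% to 69.1%) and 11 of 33 HET nuclei (33.3%, 18.0% to 51.8%). In oligodendrocytes Tac1 was also lower in HET, at 16.1 against 25.0 CPM, and its part in the result was not tested. Trh came from few nuclei, 1 of which held 27.3% of its WT UMIs.

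Of the 101 receptor and channel genes, 25 had an interval above 0 and 5 below, against 466 and 573 of all 6940. Whether an interval leaves out 0 depends on the number of UMIs, which was not matched between these sets. Chrm2 and Grin3a, given further below, were among the 5. Htr1b and Htr2c were higher in HET, at log2 ratios of 0.68 (0.01 to 1.35) and 0.61 (0.06 to 1.16), against 0.10 and 0.02 in other neurons. Gabbr2, a subunit of the GABA-B receptor, stood at 1.16 (0.58 to 1.75), Grm5 at 0.91 (0.44 to 1.38), Grm7 at 0.79 (0.55 to 1.03) and the M-current channel gene Kcnq3 at 0.82 (0.58 to 1.05). In other neurons these 4 genes stood at 0.44, 0.09, 0.04 and 0.03. Single nuclei weighed on some of them, 1 HET nucleus holding 28.6% of the Htr2c and 1 holding 26.3% of the Grm7 UMIs. For Grm5, 1 nucleus held 26.9% of the UMIs in WT and 1 held 27.1% in HET. Without the nucleus with most UMIs in each library Htr2c stood at 0.24, Grm7 at 0.42 and Grm5 at 0.76.

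**Figure D4:**
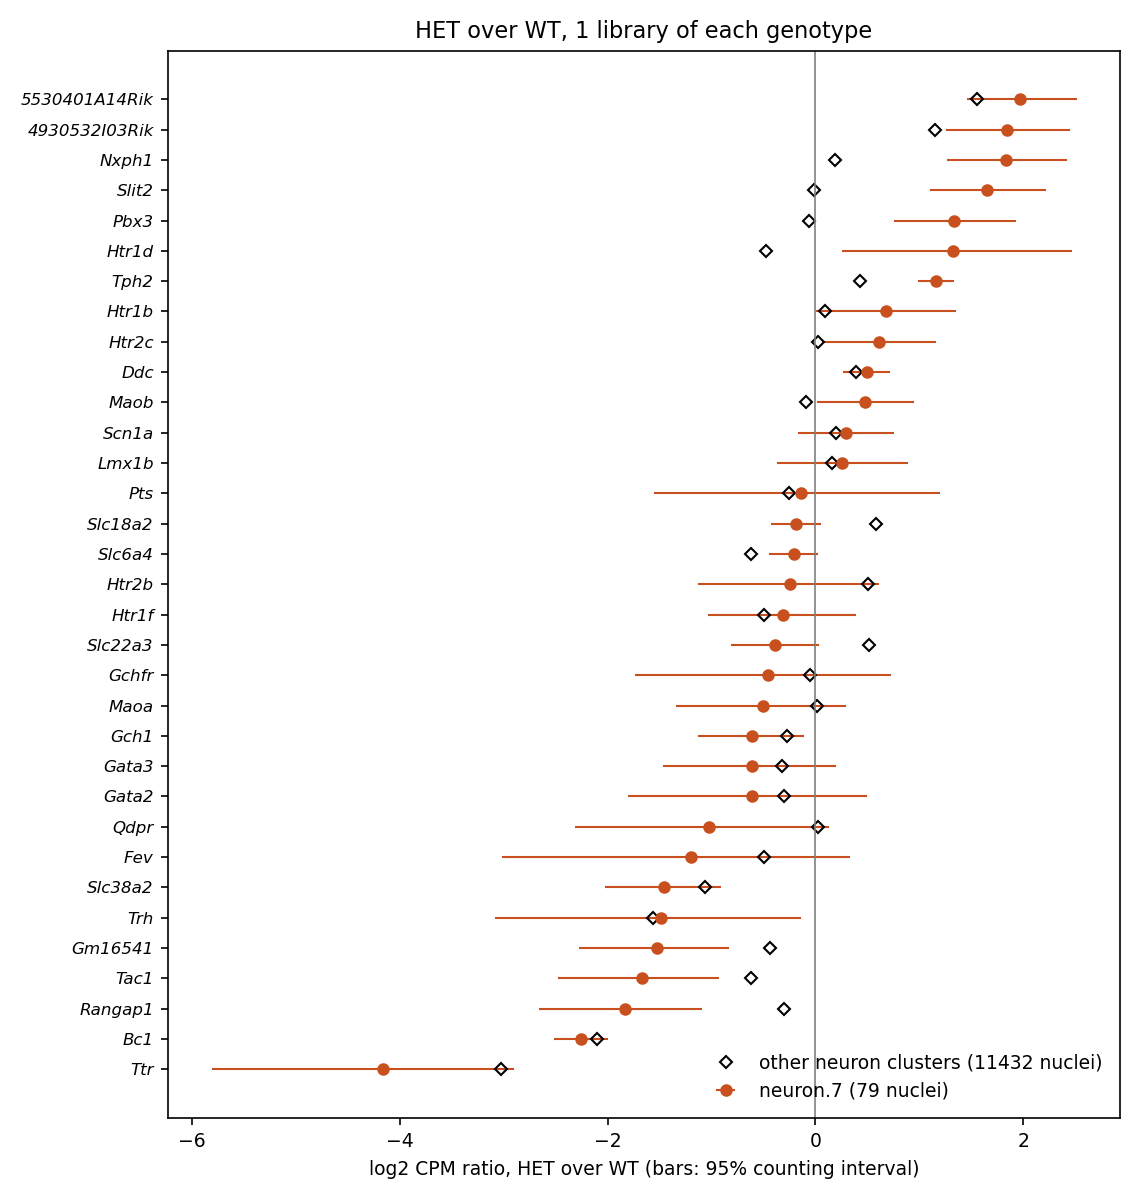
Log2 ratio of CPM, HET over WT (horizontal axis), in neuron.7 with exact 95% intervals and in the other neuron clusters as open diamonds, for serotonergic genes, peptides, serotonin receptors, Scn1a and the genes with the largest ratios. Tph2 lies at 1.16 in neuron.7 and 0.43 in other neurons, Scn1a at 0.30 and 0.19, and Ttr at -4.16 and -3.03.

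Of genes with at least 100 UMIs in neuron.7, the 5 with the largest ratio of HET over WT included 2 that were also at least 2-fold higher outside it. These were 5530401A14Rik, at a log2 ratio of 1.97 in neuron.7 and 1.56 in other neurons, and 4930532I03Rik, at 1.84 and 1.16. They lie opposite Asic2 and Ppfia2, and their reads cannot be told apart from those of these partners if strand was not used. The other 3 differed in neuron.7 more than elsewhere by value. Nxph1, a neurexin ligand, stood at 1.83 (1.27 to 2.43) against 0.19 in other neurons, and at 1.38 without the nucleus with most UMIs in each library. Slit2, an axon guidance ligand, stood at 1.65 (1.10 to 2.22) against -0.01. Pbx3, a homeobox cofactor of Hox proteins, stood at 1.33 (0.75 to 1.93) against -0.07.

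The 5 with the smallest ratio were mostly low in HET outside neuron.7 as well. Ttr, transthyretin of the choroid plexus, had 117 UMIs in WT and 5 in HET neuron.7 nuclei, a log2 ratio of -4.16 (-5.81 to -2.90), against -3.03 in other neurons. Oligodendrocytes showed the same direction, with Ttr at 713 CPM in WT and 88.4 CPM in HET. Bc1, a neuronal noncoding RNA, had 928 and 149 UMIs, a log2 ratio of -2.25 against -2.11 in other neurons, and Slc38a2, an amino acid transporter, stood at -1.45 against -1.07. Rangap1, which activates the GTPase Ran, stood at -1.84 against -0.30, but 1 WT nucleus held 70.2% of its WT UMIs, and without the nucleus with most UMIs in each library the ratio was -0.31. Gm16541 stood at -1.53 against -0.44. Both overlap genes on the opposite strand, Zc3h7b and R3hcc1l. Their part in the values was not tested.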

How the data were processed

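Nuclei from 1 WT and 1 HET brainstem were sequenced with 10x 3′ v3.1 chemistry. The authors deposited counts of UMIs per gene and nucleus without normalization, made with Cell Ranger (version not given in the sources used here) on mm10, and a cell table from Seurat 4.1 with clusters, the percent of ribosomal and mitochondrial UMIs and a doublet score per nucleus, all as deposited; groups came from the labels. No further filter on nuclei or doublets was applied. UMIs of neuron.7 and of the other neuron clusters were summed per library and expressed as CPM in Python 3.11.15 (numpy 2.4.6, pandas 2.3.3), with exact Poisson and Clopper-Pearson 95% intervals from scipy 1.17.1. Figures used matplotlib 3.10.9. The count functions were tested on simulated data. Genes needed 20 UMIs in neuron.7 over both libraries, and a call was a 2-fold ratio in both libraries (for HET over WT, a 2-fold ratio). No p-value was computed, as each genotype was 1 library. For shares, nuclei were thinned to 1000 UMIs, and none was left out as too shallow. Of 343 listed genes 341 were in the file of 25556, and Foxa1 and Hoxc9 were not. Some genes of the lists enter the counts of genes but are not reported here by name. Named genes were those of the lists, the 20 with the largest lower-library ratio among genes with 20 UMIs in each library, and for HET over WT the 5 largest and 5 smallest among genes with 100 UMIs and at least 5 nuclei per library. The cluster and the lists were chosen with earlier results of these data known. Gene positions are from GENCODE annotation of GRCm38 and promoters from RefSeq, GRCm38.p6. Alternatives were other averaging, weights, centring and minimums, and leaving out nuclei by doublet score, total UMIs or serotonergic UMIs.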

Additional observations from a re-analysis of the deposited data

Results flagged for a closer look

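For 6 of 143 named genes with at least 20 UMIs in neuron.7, the counting intervals of the HET over WT ratio lay on opposite sides of 0 in neuron.7 and in the other neuron clusters. The difference itself was not tested, as each genotype was 1 library. The ratios were not centred, and their median over all 6940 genes was -0.09 in neuron.7 and -0.05 in the other neurons. In 4 of them neuron.7 was higher in HET and the other neurons lower. Htr1d, the serotonin autoreceptor gene, had a log2 ratio of 1.33 (0.26 to 2.47) from 12 and 23 UMIs, against -0.47 in the other neurons. Gria3, an AMPA receptor subunit, stood at 1.74 (0.68 to 2.89) against -0.23, its level in neuron.7 being lower in WT than in HET. Gabrg3, a GABA-A receptor subunit, stood at 0.75 (0.36 to 1.14) against -0.03. Pbx3 stood at 1.33 (0.75 to 1.93) against -0.07, and the gene C79798 lies on its opposite strand. In the other neurons Gabrg3 and Pbx3 thus lay near the median of all genes. In the other 2, neuron.7 was lower in HET and the other neurons higher. Chrm2, a muscarinic receptor, stood at -0.35 (-0.68 to -0.02) against 0.19, and Grin3a, an NMDA receptor subunit, at -0.66 (-1.34 to -0.01) against 0.12. Both intervals ended closer to 0 than the neuron.7 median of -0.09. Among HET nuclei, 1 held 40.0% of the Grin3a UMIs and 1 held 24.2% of the Chrm2 UMIs. For Gria3, 1 WT nucleus held 27.3% of the WT UMIs. Without the nucleus with most UMIs in each library Grin3a stood at -0.65 and Gria3 at 1.55.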

How the results depend on the processing

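No paired analysis was possible because each genotype was 1 library, and no replicate could be left out. Genes 2-fold higher in neuron.7 numbered 286 to 407 over the alternatives, and genes lower 187 to 226, except 470 with the minimum on UMIs counted or expected, which was chosen after seeing the data. HET over WT counts followed the minimum, with 70 higher and 103 lower of 3391 genes at 50 UMIs, and 2603 and 2926 of 17285 with none. With each other cluster weighted equally, the WT log2 ratio was 8.57 for Tph2 and 4.30 for Fev, as neuron.9 held 1 UMI of each in 84782 UMIs. For Slc6a4 it was 9.59 in WT as a mean over nuclei. Thinned shares were 64.6% for Tph2, 49.4% for Slc6a4 and 0% for Fev. No ratio of at least 2-fold changed sign in an alternative run, while 88 of 2209 recomputed ratios of single genes, all from under 2-fold, did. Of 1430 values of single genes against other neurons 149 moved beyond their interval, and of 821 values of HET over WT 3 did. Leaving out the highest doublet scores left 45 and 32 nuclei. With 33 to 46 nuclei per library, genes under 20 UMIs, Fev among the HETs and most co-transmitters, rest on few counts.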
